A study of Mus musculus with 11 samples.

Results

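The aortas of 4 female apoE-/- mice fed a high fat diet for 3 months were compared with those of 4 female apoE-/- mice on a normal diet, by the sample titles, across 517 assays for mature mouse microRNAs (miRs). These 8 mice are part of a set of 11, and the other 3 had the high fat diet for 10 months. Those 3 enter the estimate of the spread between mice and the choice of the miRs that were tested or used as reference. No fold includes their values. All mice lack apolipoprotein E, which clears lipoprotein remnants from the blood, so the controls carry the same defect. Cholesterol made up 0.15% of the high fat diet, casein 19.5% and crude fat 21%, and the make-up of the normal diet is not given in the labels. The labels call the aortas atherosclerotic after the high fat diet and free of atherosclerosis on the normal diet. Every mouse is labelled 6 to 8 weeks old, which may refer to when the diet began or to when the aorta was taken, and no time on the normal diet is given for the controls, so diet and age cannot be told apart. Whole aorta was used, 1 mouse per array, and the design text requires an RNA integrity number over 8.

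Mature miRs are short RNAs cut from a hairpin precursor. Either arm of the hairpin (-5p or -3p) can be loaded into the silencing complex, and the less used arm, the passenger strand, carries a star in the older names used here. Bases 2 to 8, the seed, choose the messages that are silenced, so miRs with the same seed can act on overlapping targets. In the vessel wall, miR-143 and miR-145 are known for the contractile state of smooth muscle, miR-126 for endothelium, miR-142 and miR-223 for blood-derived cells, and miR-146a and miR-155 for inflammatory activation.

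The mature sequences below, from RefSeq with build GRCm38.p6, carry the comparisons that follow, with the seed in capitals. The first 5 belong to the miRs with the smallest p among those detected in all 8 mice, with the other arms of the miR-125a and miR-142 hairpins. miR-125a lies on the plus strand, its -3p arm at chr17:17830855-17830876 and its -5p arm at chr17:17830817-17830840. The miR-142 hairpin also lies on the plus strand, with its -3p arm at chr11:87756903-87756925 and its -5p arm at chr11:87756867-87756887, and miR-135a is encoded at 2 loci.
miR-125a-3p: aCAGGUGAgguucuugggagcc
miR-125a-5p: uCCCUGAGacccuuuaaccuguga
miR-142-3p: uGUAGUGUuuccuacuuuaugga
miR-142-5p: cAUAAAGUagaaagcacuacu
miR-135a: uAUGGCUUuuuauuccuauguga

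The next 3 sets show seeds shared by members described below. miR-146a (minus strand, chr11:43374435-43374456) and miR-146b (plus strand, chr19:46342790-46342811) have the same seed, as do miR-30a (plus strand, chr1:23272274-23272295), miR-30c (at 2 loci) and miR-30e (minus strand, chr4:120772660-120772681). The third set is miR-148a (minus strand, chr6:51269829-51269850), miR-148b (plus strand, chr15:103285185-103285206) and miR-152 (plus strand, chr11:96850439-96850459).
miR-146a: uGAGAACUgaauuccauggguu
miR-146b: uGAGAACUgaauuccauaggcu
miR-30a: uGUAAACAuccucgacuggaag
miR-30c: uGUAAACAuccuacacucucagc
miR-30e: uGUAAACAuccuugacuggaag
miR-148a: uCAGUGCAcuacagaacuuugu
miR-148b: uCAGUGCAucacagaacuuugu
miR-152: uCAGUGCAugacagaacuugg

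The unit is the threshold cycle, at which a well's signal passes a set brightness; 1 cycle earlier stands for about 2 times more template. A level below is minus the cycle, relative to the array's mean over 285 miRs seen in every mouse, and so on a log2 scale. Wells from 35 cycles on were taken as undetected and given that value, so a level at the limit is a bound, and the limit lies at -9.70 to -11.74 depending on the array. Detected miRs numbered 337, 352, 342 and 338 in high-fat-diet aortas and 380, 337, 360 and 336 in normal-diet aortas. The means were 342.2 ± 6.85 and 353.2 ± 21.0 (SD, n = 4 each; exact two-sided permutation p = 0.429). Of the 517 assays, 298 were detected in all 8 mice, 103 in none and 116 in some. The tissue showed its defining miRs: miR-145 was the earliest miR to amplify, at 10.98 to 12.4 cycles in high-fat-diet aortas and 11.7 to 12.4 cycles in normal-diet aortas. miR-208 and miR-499, known from heart muscle, were each detected in 0 of 4 high-fat-diet aortas, against 2 and 1 of 4 normal-diet aortas. miR-208b was detected only in high-fat-diet mouse 4, at 34.2 cycles, and in normal-diet mouse 1, at 32.6 cycles. Neuronal miR-124 was detected in 2 of 4 high-fat-diet aortas, against 1 of 4 normal-diet aortas. Deviations from the group mean over the 285 miRs correlated at 0.321 between high-fat-diet mice 1 and 2, at 0.0216 between mice 3 and 4, and at -0.546 to -0.599 across these pairs. Between normal-diet mice they correlated at -0.66 to 0.0509. Such deviations correlate below 0 on average by construction.

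Of the 353 miRs that could be tested, limma called 0 in either direction (0.0%) at an adjusted p under 0.05. The smallest adjusted p was 0.320. Before adjustment, p was under 0.05 for 10 miRs with a higher mean (2.83%) and 20 with a lower mean (5.67%) after the high fat diet, 30 in all (8.5%). The 4 high-fat-diet aortas lay wholly above the 4 normal-diet aortas in 10 miRs (2.83%) and wholly below them in 9 (2.55%), 19 in all (5.38%). Of the 19, 18 were detected in all 8 mice. The other, miR-684, was undetected in every high-fat-diet aorta and in normal-diet mouse 2. Its separation from that mouse is only a difference between the limits of the arrays. The median log2 fold over the 353 miRs was -0.05, with 166 positive and 187 negative. The median SE of a log2 fold was 0.46, and for 70 miRs (19.8%) the 95% interval lay within 1 log2 unit of no difference. These p-values measure the spread between separate mice, estimated over all groups with the 10-month mice included. An SE is therefore not the spread of the 8 mice alone. Set against the snoRNA and U6 control assays, folds of detected miRs shift down by 0.69, so that positive log2 folds smaller than this turn negative.

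**Figure D1:**
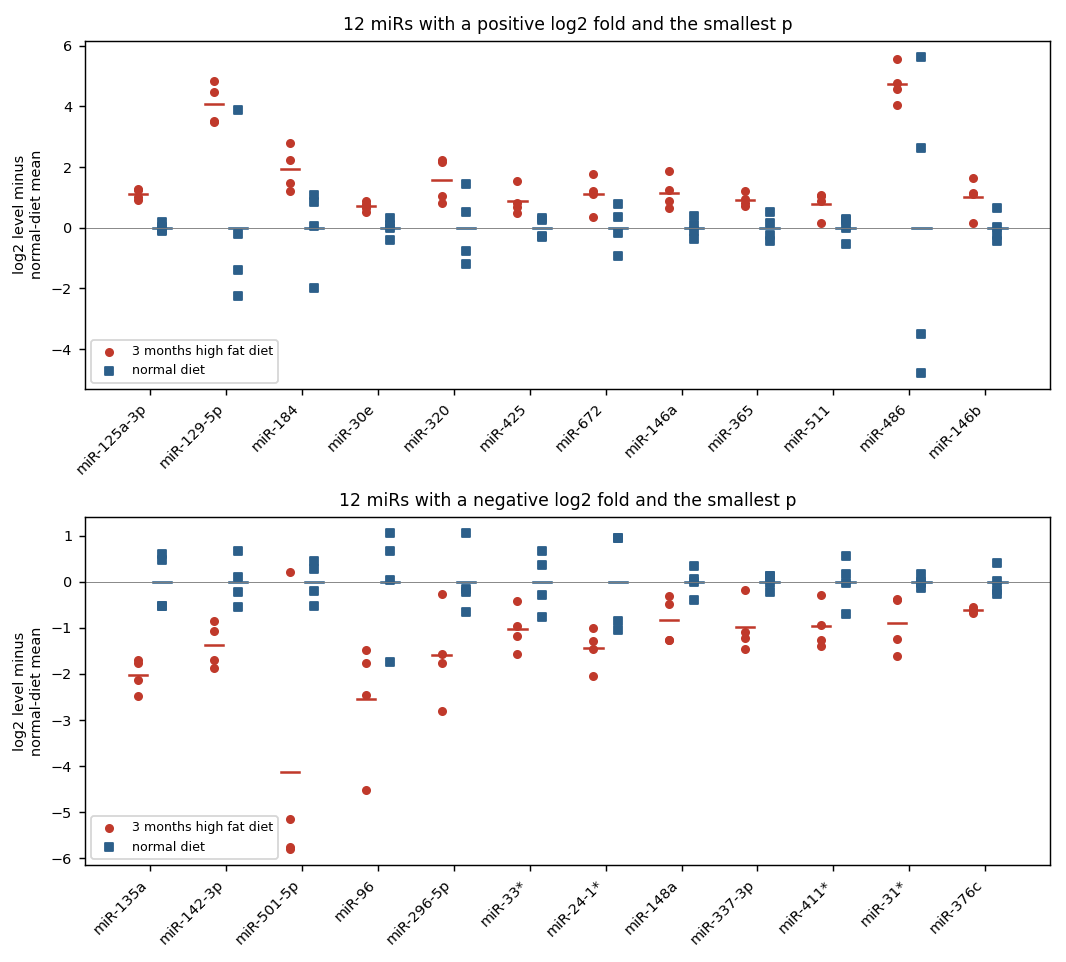
Level of each mouse minus the normal-diet mean, in log2 units, for the 12 miRs of each direction with the smallest p among those detected in all 4 mice of at least 1 group; circles are 3-month high-fat-diet mice, squares normal-diet mice, and bars the group means. None passed the adjusted test; miR-125a-3p and miR-135a, with the smallest p, have log2 folds of 1.11 and -2.02.

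miR-125a-3p had the smallest p. It is the -3p arm of a hairpin that lies beside let-7e and miR-99b. Its levels were -2.79, -2.46, -2.44 and -2.69 in high-fat-diet aortas, against -3.81, -3.69, -3.78 and -3.53 in normal-diet aortas. All 4 of the first lay above all 4 of the second, with a gap of 0.74 between the groups. The log2 fold was 1.11 (SE 0.25, limma adjusted p = 0.320). Its partner arm miR-125a-5p was at 4.63, 5.03, 4.42 and 4.96 after the high fat diet and at 4.67, 5.48, 4.03 and 4.17 on the normal diet, with a log2 fold of 0.17 (SE 0.51). The groups overlapped there, and neighbours let-7e and miR-99b had log2 folds of 0.64 and 0.16.

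miR-135a had the next smallest p, in the other direction. Levels were -7.23, -8.02, -7.30 and -7.66 after the high fat diet, against -4.94, -5.07, -6.07 and -6.06 on the normal diet. Every high-fat-diet aorta lay below every normal-diet aorta, by at least 1.16 log2 units. The log2 fold was -2.02 (SE 0.49, limma adjusted p = 0.320). Its starred arm miR-135a* was at 1.25 (SE 1.39), an opposite sign within its error.

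Among 7 tested miRs of blood-derived cells, miR-142-3p alone was without overlap between the groups. Levels of miR-142-3p were 2.45, 2.66, 1.82 and 1.65 in high-fat-diet aortas, against 3.61, 4.18, 2.97 and 3.28 in normal-diet aortas. The log2 fold was -1.37 (SE 0.38, limma adjusted p = 0.339), a 2.58-fold lower mean after the high fat diet. The other arm of the same hairpin, miR-142-5p, was at -0.19 (SE 0.41). Myeloid miR-223 was at 0.04 (SE 0.50), lymphocyte miR-150 at 0.46 (SE 0.64), miR-342-3p at 0.72 and miR-181a, known from lymphocyte development, at -0.00. The blood-lineage list thus had 4 positive and 3 negative folds among 7 tested members, 0 called, with a median of 0.04 against -0.05 for all 353. In bulk tissue, fewer cells of a type and less RNA per cell cannot be told apart.

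The red cell miRs miR-451 and miR-486 gave unlike values. miR-451 was at 2.88, 3.81, 2.94 and 3.41 after the high fat diet, against 2.71, 4.75, 2.63 and 4.87 on the normal diet, with the groups overlapping and a log2 fold of -0.48 (SE 0.65). miR-486, which is also made in muscle, amplified at 25.9, 25.5, 26.4 and 25.1 cycles in high-fat-diet aortas. Of the normal-diet aortas it amplified in 2, at 26.8 and 24.7 cycles, and mice 1 and 2 showed no amplification, so the log2 fold of 4.73 (SE 2.17) rests on the value given to undetected wells. 

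For inflammatory activation, 10 of 13 tested miRs had a positive fold and 0 were called. The list had a median of 0.46, against -0.05 for all 353, and of 0.21 without normal-diet mouse 3. Set against the snoRNA and U6 assays, the list's median turned to -0.23 and that of all miRs was -0.75. Under the 8 scalings tried, the list's median stood 0.43 to 0.55 above that of all miRs. miR-146a, which restrains NF-kB signalling, was at 5.16, 5.52, 4.94 and 6.15 after the high fat diet, against 4.19, 4.38, 4.67 and 3.91 on the normal diet. The groups did not overlap, and the log2 fold was 1.16 (SE 0.48, limma adjusted p = 0.519). Its seed relative miR-146b was at 4.12, 4.15, 3.14 and 4.64 against 3.03, 3.65, 2.75 and 2.56, with overlap and a log2 fold of 1.01 (SE 0.48). Levels of miR-155, a miR of activated immune cells, were 0.03, 0.26, 0.12 and 0.94 after the high fat diet, against -1.12, -0.09, -0.05 and -0.33 on the normal diet. The 2 groups are 0.08 apart, and the log2 fold was 0.73 (SE 0.48). miR-511, encoded in an intron of the macrophage mannose receptor gene Mrc1, was at 0.78 (SE 0.34), and miR-132, a miR induced by CREB, at 0.59 (SE 0.32). Against these, miR-21 was at -0.12, miR-21* at -0.16 and miR-146b* at -0.84 (SE 1.53). Among the high-fat-diet mice, mouse 4 had the highest miR-146a, miR-146b and miR-155, and mouse 2 the highest miR-132. Without high-fat-diet mouse 4 the list's median was 0.34.

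**Figure D2:**
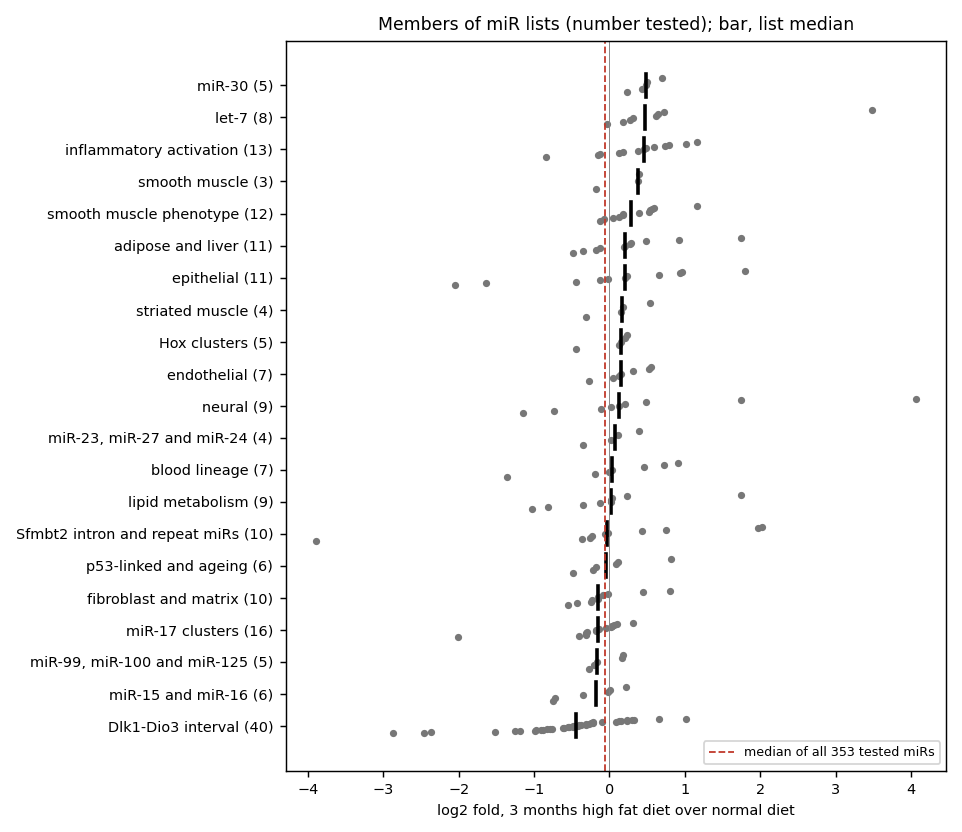
Log2 folds of the members of 21 miR lists (3 months of high fat diet over normal diet; grey points, 1 per tested miR) with the median of each list (black bar) and of all 353 tested miRs (dashed line). Medians run from -0.44 for the Dlk1-Dio3 interval to 0.49 for the miR-30 family, around -0.05 for all tested miRs.

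The 5 miR-30 family members with a shared seed all had positive folds, of which 0 were called, with a median of 0.49 (-0.20 against snoRNA and U6 assays, and 0.28 without high-fat-diet mouse 2). miR-30e was at 5.12, 5.37, 4.98 and 5.25 in high-fat-diet aortas, against 4.08, 4.56, 4.48 and 4.78 in normal-diet aortas, without overlap (log2 fold 0.70, SE 0.26, limma adjusted p = 0.441). Log2 folds were 0.50 for miR-30a, 0.49 for miR-30c, 0.43 for miR-30d and 0.24 for miR-30b, each with overlapping groups. The starred arm miR-30e* was at -0.08 (SE 0.27). In the let-7 family 7 of 8 tested members were positive, with a median of 0.47 (-0.23 against snoRNA and U6 assays). That median was 0.24 without high-fat-diet mouse 3, and 0.17, 0.23 and 0.86 without normal-diet mouse 1, 2 or 4. Its widest fold, 3.49 for let-7f (SE 2.41), came from normal-diet mouse 2, in which the well stayed blank while the other 7 mice amplified at 20.7 to 22.5 cycles.

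Lipid-handling miRs pointed both ways, with 5 positive and 4 negative folds among 9 tested, 0 called, and a median of 0.03 that ran from -0.23 to 0.07 with 1 mouse left out. miR-33*, the passenger strand of the Srebf2 intron hairpin, was at -3.90, -3.69, -3.14 and -4.30 after the high fat diet, against -2.36, -2.06, -3.01 and -3.49 on the normal diet. The groups overlapped through normal-diet mouse 4, and the log2 fold was -1.03 (SE 0.37, limma adjusted p = 0.441). miR-148a, known to repress the LDL receptor in liver, was at 2.39, 2.23, 1.45 and 1.44, against 3.04, 2.77, 2.70 and 2.30. Its log2 fold was -0.82 (SE 0.30), while miR-148b and miR-152, of the same seed, were at -0.27 and -0.25. Liver-specific miR-122 was at 0.55, 0.88, 1.51 and -0.22 against -1.17, -2.32, 2.07 and -2.84, with 1 normal-diet aorta above all others and a log2 fold of 1.75 (SE 0.94). miR-365, known from brown fat, did not overlap between groups, with 6.22, 6.74, 6.46 and 6.34 after the high fat diet, against 5.08, 6.03, 5.68 and 5.29 on the normal diet (log2 fold 0.92, SE 0.39, limma adjusted p = 0.519).

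Several further miRs separated the groups or came near it. Levels of miR-184, known from cornea and lens, were -5.73, -5.98, -4.40 and -4.98 in high-fat-diet aortas, against -7.14, -9.20, -6.36 and -6.11 in normal-diet aortas, with a log2 fold of 1.93 (SE 0.71) and no overlap. miR-425, cut from a host transcript that also gives miR-191, was at 2.55, 2.73, 2.86 and 3.60 against 1.74, 2.31, 1.79 and 2.36, again without overlap (log2 fold 0.88, SE 0.35), and miR-191 was at 0.59. miR-204, encoded in the Trpm3 gene, was at 2.56, 2.30, 2.57 and 2.94, against 2.06, 2.06, 2.03 and 1.95. The normal-diet values were within 0.11 of each other, and the log2 fold was 0.57 (SE 0.28). Hypoxia-induced miR-210 (log2 fold 0.53) and miR-547 (0.52) completed the 10 miRs whose high-fat-diet values were all higher. 

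On the lower side, miR-31* was at 1.09, 0.71, 1.93 and 1.94 in high-fat-diet aortas, against 2.49, 2.30, 2.32 and 2.18 in normal-diet aortas. No value overlapped (log2 fold -0.91, SE 0.34, limma adjusted p = 0.441), but the first 2 high-fat-diet mice and the last 2 differed by more than the gap to the controls. The main arm miR-31 was at -0.12 (SE 0.27). miR-16*, at -0.71 (SE 0.27), and miR-106b*, at -2.01 (SE 1.37), were also without overlap, with miR-16 itself at 0.22 and miR-106b at 0.03. miR-296-5p, from the imprinted Gnas locus, was at -3.07, -1.76, -3.26 and -4.30, against -1.73, -1.66, -2.16 and -0.45. Its log2 fold was -1.60 (SE 0.57) with overlapping groups.

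Some leading miRs differed between mice of 1 group by as much as between the groups. miR-320, which is cut without Drosha, was at 2.58, 2.37, 3.78 and 3.70 in high-fat-diet aortas, against 0.79, 0.35, 2.07 and 2.98 in normal-diet aortas, with a log2 fold of 1.56 (SE 0.60). Mice 1 and 2 lay below mice 3 and 4 in each group, and the groups overlapped. miR-24-1*, a passenger strand of miR-24, was at -4.22, -4.79, -3.76 and -4.03 against -1.81, -1.80, -3.80 and -3.60, with a log2 fold of -1.45 (SE 0.53), while miR-24 was at 0.39. There mice 1 and 2 lay above mice 3 and 4 on the normal diet and below them after the high fat diet. The part of such splits in the folds was not tested.

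miR-96 had one of the wider negative folds and comes from a cluster with miR-182 and miR-183, known from sensory organs. It was at -7.30, -7.02, -10.06 and -7.99 in high-fat-diet aortas, the third at the detection limit, against -4.88, -4.48, -5.51 and -7.29 in normal-diet aortas. The log2 fold was -2.56 (SE 0.82, limma adjusted p = 0.441). Its cluster neighbours were at 0.62 for miR-182 and 0.09 for miR-183, so the 3 did not share a direction.

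The Dlk1-Dio3 interval, an imprinted region with a large miR cluster, had 31 negative folds among 40 tested members of 61 assayed, a median of -0.44, and 0 called. Before adjustment 6 members with a lower mean and 0 with a higher mean had a p under 0.05, against 5.67% and 2.83% of all tested miRs, and this pattern was known when the list was chosen. Of the 6, miR-299* was undetected in all 4 high-fat-diet aortas and miR-369-3p in 2 of them. miR-376c, another of the 6, was at 0.69, 0.69, 0.61 and 0.75, against 1.04, 1.32, 1.12 and 1.70, without overlap between groups. Outside the 6, miR-495 (log2 fold -0.62) and miR-376a* (-1.25) did not overlap either. These 3 of 40 tested members stand against 2.55% of all tested miRs that lay wholly lower. The highest member, miR-411, stood at 1.02 (SE 0.81), while its starred arm miR-411*, among the 6, was at -0.97 (SE 0.36).

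Medians lay between -0.18 and 0.21, with 0 members called, in the lists for fibroblast and matrix, epithelium, striated muscle, neural tissue, adipose tissue and liver, p53-linked and ageing miRs, the Hox clusters, the miR-17 clusters and the miR-15 and miR-16 family. Against the snoRNA and U6 assays these medians lay between -0.88 and -0.48. With 1 mouse left out, the striated muscle median ran from -0.34 to 0.62 and the epithelial median from -0.10 to 0.52. In the miR-15 and miR-16 family, which restrains the cell cycle, the lowest folds were -0.75 for miR-497 and -0.72 for miR-322, while miR-195 was at -0.02 and miR-15a at 0.00. Of 10 fibroblast and matrix miRs 8 had a negative fold, among them miR-199a-3p at -0.08 and miR-214 at -0.02, whereas miR-29b, known to repress collagens, was at 0.80 (SE 0.55). In the miR-17 clusters 10 of 16 were negative and miR-20a was at -0.40. Among epithelial miRs miR-200c was at 0.94 and miR-200a* at -1.63 (SE 0.74), and the striated muscle miRs miR-1 and miR-133a were at 0.18 and 0.54.

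miRs known from smooth muscle and endothelium were measured with moderate precision. miR-145 was at 12.28, 12.82, 12.66 and 11.97 in high-fat-diet aortas, against 12.05, 12.90, 11.55 and 11.73 in normal-diet aortas. The log2 fold was 0.38 with a 95% interval from -0.57 to 1.32. miR-143, from the same cluster, was at 8.32, 8.34, 7.89 and 7.99, against 7.32, 7.71, 7.80 and 8.16, a log2 fold of 0.39 (-0.21 to 0.99). Against the snoRNA and U6 assays both had log2 folds of -0.31, so the sign depends on the scaling. After quantile normalization miR-143 was at -0.04. The -0.00 of miR-145 there is fixed by the method, which gives the earliest miR of each array the same value. Of the smooth muscle phenotype list, 10 of 12 members were positive, 0 were called and the median was 0.29 (-0.41 against snoRNA and U6 assays). It was 0.43 without high-fat-diet mouse 1, and 0.15, 0.51, 0.16 and 0.46 without normal-diet mouse 1, 2, 3 or 4.

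miR-126-3p, from an intron of Egfl7, was at 8.89, 9.02, 8.43 and 9.45 after the high fat diet, against 8.29, 8.69, 8.40 and 8.21 on the normal diet, a log2 fold of 0.55 (-0.18 to 1.28). Its other arm miR-126-5p was at 5.37, 4.77, 4.76 and 4.95, against 5.11, 5.51, 5.14 and 5.18, a log2 fold of -0.27. Within each mouse, miR-126-5p minus miR-126-3p was -3.52, -4.24, -3.67 and -4.49 after the high fat diet, against -3.18, -3.19, -3.26 and -3.02 on the normal diet. The within-mouse difference does not depend on the reference, and the groups did not overlap (limma difference -0.82, SE 0.37, adjusted p = 0.375 over 86 hairpins). miR-21, a miR of injured vessels, was at -0.12, with an interval from -0.90 to 0.66, and at -0.82 (SE 0.64) against the snoRNA and U6 assays. Growth-linked miR-221 was at 0.04 and miR-222 at 0.52, matrix-regulating miR-29a at 0.45, and p53-linked miR-34a at 0.08. None of these tests shows that the groups were equal.

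**Figure D3:**
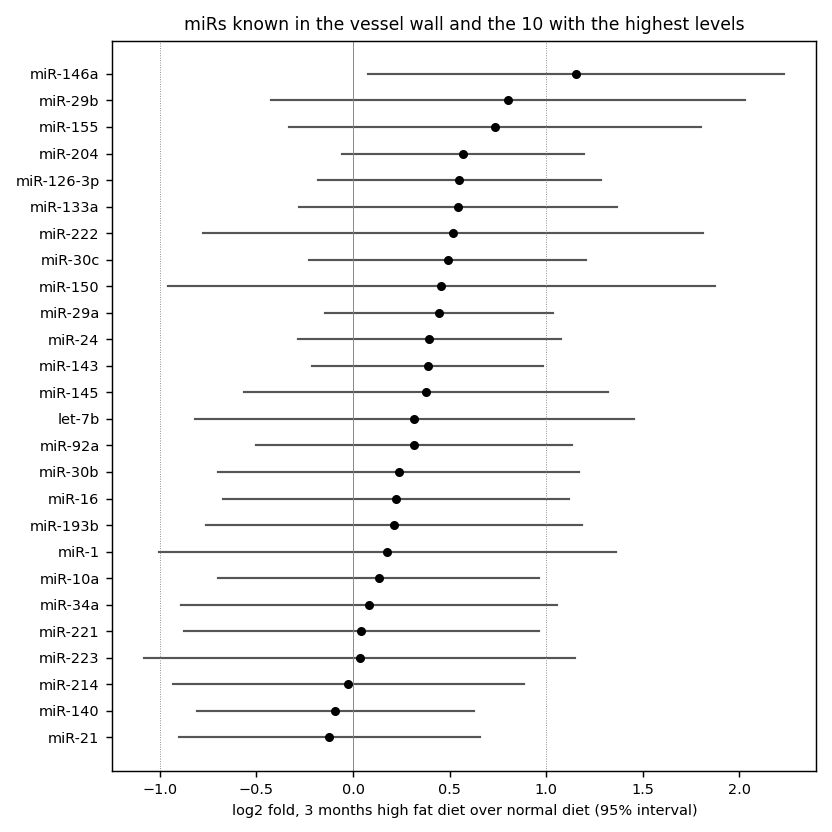
Log2 folds (3 months of high fat diet over normal diet) with limma's 95% intervals for 26 miRs known in the vessel wall or with the highest levels; dotted lines mark 1 log2 unit. For 25 of the 26 the interval spans 0, the exception being miR-146a, and for 6 it lies within the dotted lines.

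Both arms of 86 hairpins were tested, which gives a second reading on each precursor. The starred arms all lay in the second of 2 assay blocks and many of their partners, miR-186 among them, in the first. Comparisons of such arms also hold any offset between the blocks, which is given below. The 2 arms had folds of the same sign in 41 of the 86, and in 33 of the 68 pairs detected in all 8 mice, where Pearson's r across pairs was -0.11, a description over points that share arrays. Before adjustment, 1 arm had a p under 0.05 in 16 hairpins, and both arms did in 0. A fit of the difference between arms, added after the values of single miRs were seen, called 0 of 86 (0.0%). Before adjustment 6 had a p under 0.05 (6.98%), and in 3 the groups did not overlap (3.49%). Without normal-diet mouse 4 it called 3, those of let-7b, miR-186 and miR-200b. In miR-186, the main arm minus the starred arm was 7.56, 8.56, 8.03 and 7.89 after the high fat diet, against 5.11, 5.90, 6.43 and 7.88 on the normal diet, with mouse 4 of the controls among the high-fat-diet values.

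**Figure D4:**
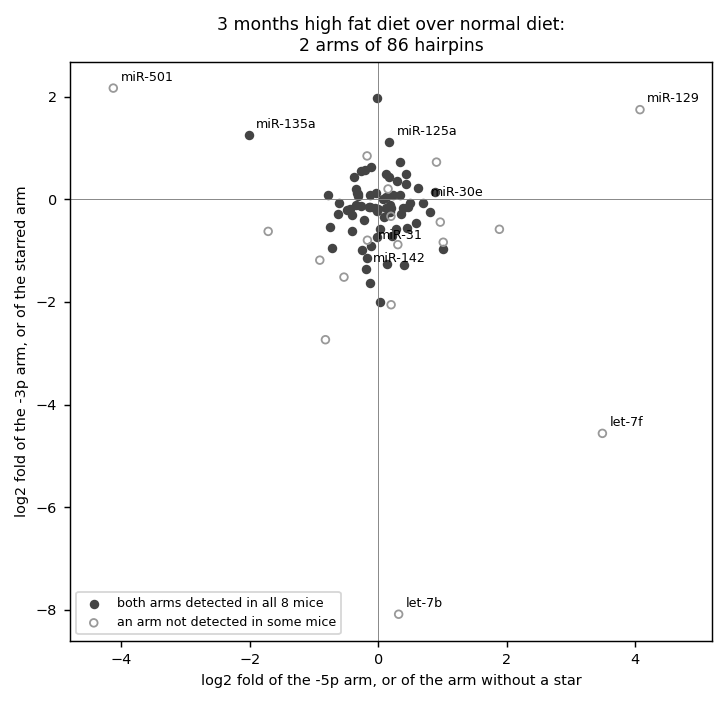
Log2 folds (3 months of high fat diet over normal diet) of the 2 arms of 86 hairpins, the -5p or unstarred arm across and the -3p or starred arm up; filled circles are the 68 hairpins with both arms detected in all 8 mice. Signs match in 33 of these 68, and the points farthest out, such as let-7b and let-7f, are open circles that hold undetected wells.

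Passenger strands named with a star were tested in 81 cases, all in the second of 2 assay blocks. Of these 59 had negative folds, with a median of -0.23, and before adjustment 8 with a lower mean and 0 with a higher mean had a p under 0.05, against 5.67% and 2.83% of all tested miRs. Of the 8, let-7b*, miR-200b* and miR-299* were detected in 0 of 4 high-fat-diet aortas, so their p rests on wells set to the limit. The starred median was -0.14 without high-fat-diet mouse 1, -0.09 without mouse 2 and -0.47 without mouse 3. The 37 unstarred miRs of that block had a median of -0.25, with 2 such lower means. All 10 miRs with a higher mean and a p under 0.05 before adjustment lay in the first block. Relative to the second block, the first block stood 2.87, 3.16, 1.78 and 2.00 higher in high-fat-diet mice and 2.16, 2.49, 2.14 and 2.20 higher in normal-diet mice (exact two-sided permutation p = 0.571, n = 4 each). With each block centred by itself, the starred median was -0.09, with 6 lower and 1 higher. The part of the block offset in single folds was not tested.

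Some miRs were seen in most mice of 1 group and in at most 1 mouse of the other. There were 17 among the 517 assays, of which 4 were seen mainly after the high fat diet and 13 mainly on the normal diet. The 13 were all detected in normal-diet mouse 1, which had the most detected miRs of the 8 mice, 380. The part of this in the split was not tested. miR-129-5p, a brain-enriched miR, amplified at 28.4, 28.8, 30.9 and 30.4 cycles in high-fat-diet aortas and at 29.6 cycles in normal-diet aorta 1, with no amplification in the other 3. Its log2 fold of 4.07 (SE 1.11, limma adjusted p = 0.339) moved with how blank wells were treated: it was 0.21 with these wells left missing and 7.47 with the deposited normalized values. Without normal-diet mouse 1 limma called it, at 5.36, but no control was then detected, so that test sets measured wells against the limit alone. Its other arm miR-129-3p was detected in all 8, with a log2 fold of 1.75 (SE 0.90). miR-201, miR-294 and miR-342-5p were each detected in 3 of 4 high-fat-diet aortas and in normal-diet aorta 3 alone.

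On the other side, let-7b* showed no amplification in any high-fat-diet aorta and amplified at 24.4, 24.6 and 23.4 cycles in normal-diet aortas 1 to 3, but not in mouse 4. Without that mouse limma called it, a test of 3 measured wells against a group wholly at the limit. let-7f* was seen at 25.4 cycles in high-fat-diet mouse 1 and at 26.2, 26.3 and 24.4 cycles in the same 3 normal-diet mice. miR-684 had no amplification after the high fat diet, against 30.5, 31.1 and 30.02 cycles in 3 normal-diet aortas, and miR-200b* and miR-299* were likewise seen in 0 of 4 against 3 of 4. miR-501-5p amplified in 1 high-fat-diet aorta, at 30.2 cycles, and in all 4 normal-diet aortas, at 29.97, 30.3, 28.9 and 29.3 cycles. The remaining 7 were miR-127*, miR-148a*, miR-300*, miR-292-3p, miR-804, miR-878-3p and miR-879, each seen in 1 of 4 against 3 of 4.

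**Figure D5:**
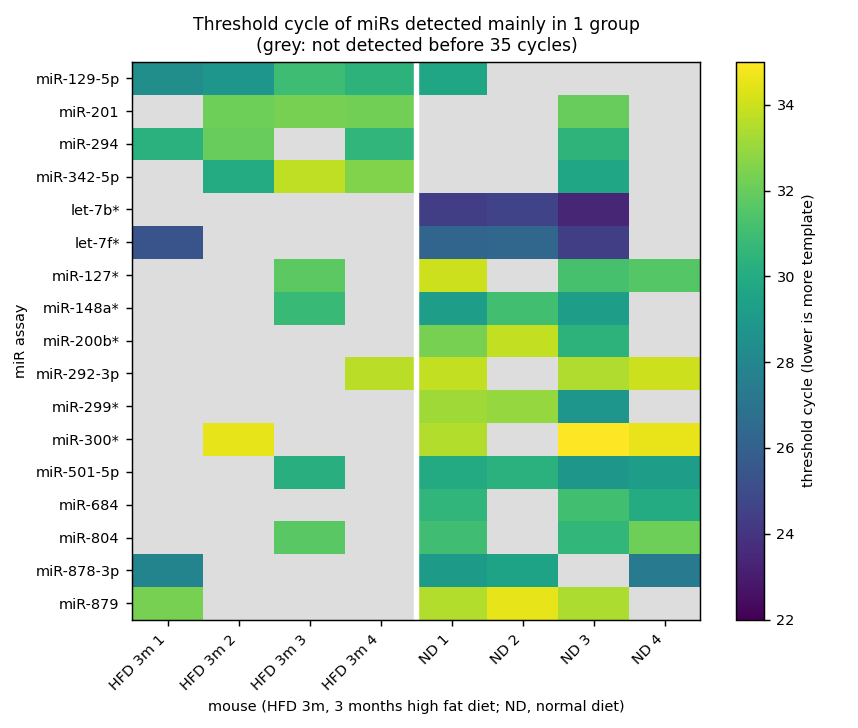
Threshold cycle of the 17 miRs detected in at least 3 mice of 1 group and at most 1 of the other, in each of the 4 high-fat-diet (HFD 3m) and 4 normal-diet (ND) mice; grey marks wells not detected before 35 cycles. The upper 4 miRs were seen mainly after the high fat diet and the lower 13 mainly on the normal diet, and let-7b* was detected at 23.4 to 24.6 cycles or not at all.

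Blank wells were not limited to scarce miRs. Among assays whose detected wells had a median under 30 cycles, 48 had at least 1 blank well, 192 wells in all. miR-199a-5p amplified at 23.9 and 23.6 cycles in high-fat-diet mice 1 and 2 and in no other of the 8. miR-23a amplified at 21.7 and 22.6 cycles in normal-diet mice 1 and 2 and in no other. Of all 4136 wells of these mice, 1345 showed no amplification and 9 amplified between 35 and 40 cycles.

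The controls U6, snoRNA135, snoRNA202 and snoRNA429 set how far the reference moves these folds. Their mean level relative to the miRs was 7.46, 7.30, 8.62 and 8.05 in high-fat-diet aortas, against 6.62, 7.24, 7.38 and 7.41 in normal-diet aortas. The means were 7.86 ± 0.60 and 7.16 ± 0.37 (SD, n = 4 each), a difference of 0.69 (exact two-sided permutation p = 0.114). U6 alone was 1.27 higher after the high fat diet, with an exact permutation p of 0.0286, the smallest that 4 against 4 allows, and 0.114 adjusted over the 4 assays. With all 4 assays as reference the median log2 fold of the 353 miRs was -0.75, against -0.05 with the mean of the miRs.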

How the data were processed

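The deposited raw table holds threshold cycles per assay and mouse, which run on a log2 scale with high numbers for little template; wells at 40 are read here as blank. The deposited second table, also log2, equals each cycle minus the mean of snoRNA202 and snoRNA429, found by setting both tables side by side. Per the labels' protocols, the mirVana kit was used for extraction. Instrument and software: not given in the sources used here.

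Wells at 35 cycles or later were set to 35, and the array's mean over the 285 miRs seen in all 11 mice was subtracted. Testing covered the 353 of 517 miRs seen in 3 or more mice of any group, with limma 3.58.1 in R 4.3.3 (lmFit, eBayes, all 3 groups, 8 residual degrees of freedom), two-sided, with Benjamini-Hochberg adjustment. Precision falls with later cycles, the only measure of depth here. A doubling per cycle is assumed, not checked. The code was tested on simulated data. Single values were compared by exact permutation tests (scipy 1.17.1).

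The named miRs are the 12 of each direction with the smallest p among those detected in all 4 mice of a group, the other arms of their hairpins, up to 3 members of each list, miRs detected mainly in 1 group, the 10 with the highest levels and 21 fixed vessel-wall miRs. Of these 110, not all are given a value. miR-191, miR-99b, miR-16*, miR-210, miR-547, miR-181a, miR-106b, miR-208, miR-208b, miR-499, miR-124, miR-23a and miR-199a-5p fall outside this rule. So do miR-148b, miR-152, miR-182, miR-183, miR-186, miR-495, miR-376a*, miR-369-3p, miR-30a, miR-195, miR-15a, miR-199a-3p and miR-21*. All of these were chosen with values seen. Members and lists were chosen with earlier results of these data known. Assay names were matched to RefSeq mature miRs for 31 of 36 looked up.

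Alternatives were other references (array median, small-RNA control assays, deposited values, snoRNA202 with snoRNA429, each block by itself, quantile, none), other limits and filters, a fit of 2 groups, a variance trend, the replicate number as a block, and each mouse left out in turn.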

Additional observations from a re-analysis of the deposited data

Results flagged for a closer look

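For the 24 leading miRs, the number of miRs detected and the mean of the control assays, each group of 4 mice was searched for a mouse far from the others, 52 groups in all, of which chance would give about 1 in 20. One was found: miR-501-5p in high-fat-diet mouse 3, at -5.22, while the nearest of the other 3 mice was at -10.58, the limit of detection of its array. The gap was 0.89 of the group's range, above Dixon's critical value for 4 samples. The other 3 values are undetected wells set to the limit of their arrays, so the ratio is not set against a measured spread. The same miR was detected in 4 of 4 normal-diet aortas.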

How the results depend on the processing

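limma called 0 miRs under every alternative that kept all 8 mice. Leaving out 1 mouse in turn gave 0 to 1 calls: miR-129-5p without normal-diet mouse 1, let-7b* without normal-diet mouse 4 and miR-501-5p without high-fat-diet mouse 3 (adjusted p = 0.00192, 0.0294 and 0.0146). In each, 1 group is then wholly at the detection limit and the miR passed the filter through the other, so these p-values rest on values set to the limit. Before adjustment, p was under 0.05 for 1 to 16 higher and 5 to 40 lower means over the alternatives. All 24 leading miRs kept their sign under each alternative except miR-501-5p, at 0.22 with undetected wells left missing; the only detected high-fat-diet well then sets its group. The difference in the control assays was 1.27 with U6 alone (exact permutation p = 0.0286), and 0.44 to 0.88 with 1 mouse left out. Arm differences called ranged from 0 to 3, the 3 without normal-diet mouse 4; the cause was not tested. The replicate block gave 0 calls; before adjustment 16 higher and 26 lower means had a p under 0.05. The replicate numbers do not pair the mice by the labels. Over the 285 miRs same-numbered mice correlated at 0.331, 0.20, 0.0333 and 0.27 in their deviations. Each of the 4 high-fat-diet mice correlated best with its own number there, but 3 of 4 normal-diet mice did. Over the 353 tested miRs the correlations were 0.0554, 0.00124, -0.131 and 0.302. High-fat-diet mice 1 to 3 then correlated best with a control of another number. Cycle numbers limit what can be seen of scarce miRs: the median SE was 0.78 among the 118 miRs of lowest level, and 0.37 among the 118 of highest level.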
